A study of Homo sapiens with 90 samples.

Results

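RNA was sequenced from A549, an established human lung adenocarcinoma cell line, after 7 days and after 48 h of the MEK inhibitor GSK1120212 (trametinib) at 200 nM, and the 2 durations were compared across all genes. The libraries were chosen by their labels, 3 of cells treated for 7 days (replicates 1, 2 and 3) and 3 of cells treated for 48 h (replicates 2, 3 and 4), which is 6 of the 90 libraries of the series. Of the 53893 gene IDs in the table, 14810 passed the filter on low counts in A549 and were tested. The series covers 6 cancer cell lines, each given a kinase inhibitor for its own driver at both durations, together with vehicle, the CDK7 inhibitor THZ1 and the combination at 48 h. The vehicle group of A549 received 0.1% DMSO for 48 h (replicates 2, 3 and 4). The A549 groups given THZ1 at 150 nM for 48 h, alone or with GSK1120212 at 200 nM, entered the statistical fit but are not described. Every group was grown in the same serum-containing RPMI medium, so nothing but the drug, its vehicle and the time differed by the labels. No 7-day vehicle group entered the comparison, and the length of drug exposure therefore cannot be told apart from the time in culture. The labels do not say whether replicates were separate cultures, so the p-values measure the spread between these libraries, which may be technical.

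MEK1 and MEK2 (genes MAP2K1 and MAP2K2) are the kinases that activate ERK at the end of the RAS and RAF cascade, and trametinib holds both in an inactive state. ERK switches on its own brakes, among them the dual-specificity phosphatases (DUSP genes) and the Sprouty proteins (SPRY genes), and the mRNA of these genes is widely used as a readout of ERK activity. A549 also lacks working KEAP1, the protein that marks the transcription factor NRF2 for destruction, and its NRF2 target genes are known to run high.

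The 7-day libraries held 6.2 to 6.38 M expected counts each, against 9.88 to 11.86 M in the 48 h libraries and 10.22 to 12.94 M in DMSO. Values are CPM, counts scaled to a common library size. CPM is not corrected for gene length, so values are compared between libraries and not between genes. Among 17 fixed lung epithelial markers, the keratins KRT7, KRT8 and KRT18 and the adhesion protein EPCAM were abundant. SFTPA1, SFTPC, AQP5 and SCGB1A1 had no count at either duration, and the lung lineage factor NKX2-1 averaged 0.164 CPM at 7 days and 0.152 CPM at 48 h. ABCA3, the lipid transporter of surfactant-making cells, was detected at both durations and is given with the alveolar genes. Of the markers of other tissues, CD3E, CD4 and MS4A1 of blood cells and KDR of endothelium had no count at either duration. Others were present, and 2 blood markers, ITGAM among them, averaged 5 CPM or more at 1 duration at least. So did MITF of melanocytes, VIL1 and CDH17 of the gastric set, and UPK1B, UPK3B, PPARG and GATA3 of the urothelial set. The gastric set summed to 926 to 956 CPM at 7 days and 1032 to 1061 CPM at 48 h. The urothelial set summed to 150 to 164 CPM at 7 days and 360 to 388 CPM at 48 h. The summed level of 12 blood markers was 19.9 to 22.7 CPM at 7 days and 29.2 to 31.8 CPM at 48 h. The summed level of the fibroblast and endothelial markers was 185 to 255 CPM at 7 days and 91.8 to 96.5 CPM at 48 h. COL1A1 was the only marker of this set that averaged 5 CPM or more, made up most of the sum and is given with the matrix genes. The 7-day library of replicate 1 stood apart from the other 7-day libraries, and results that rest on it are given with and without it. In bulk RNA, fewer cells of a kind and less RNA per cell cannot be told apart.

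After 7 days the RNA of A549 differed widely from that at 48 h. By edgeR's quasi-likelihood test with Benjamini-Hochberg adjustment, 7591 of 14810 genes (51.3%) passed an adjusted p of 0.05, 4082 of them higher at 7 days (27.6%) and 3509 lower (23.7%). The counts of higher and lower list members between the durations are to be read beside these shares. Against them, 13 of 20 mesenchymal and matrix genes and 15 of 26 TGF-beta and BMP genes were higher, with COL4A2 and TGFB1 among them. All 22 cholesterol synthesis genes, 18 of 24 fatty acid genes and 22 of 27 NRF2 target genes were lower, among them HMGCS1, SCD, AKR1B10 and FTL. H19 and APOA1 had the largest falls of the genes named by rule. Proliferation genes were far below DMSO at both durations, and 18 of 26 mitosis genes fell further by 7 days.

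Most calls were small changes, since 4358 of them were under 1.5-fold. At 2-fold or more, 772 genes were higher and 832 lower. The 3 and 3 libraries did not overlap in 7323 of the called genes. Calls and overlap rest on the same libraries, so this count is not separate support, and its share over all tested genes is not given. The median log2 fold change of all tested genes was 0.02. When every A549 library was thinned to the total of the shallowest, 6874 of 13733 genes passed. Against DMSO, 11053 genes differed at 7 days (74.6%) and 10981 at 48 h (74.1%). At 7 days 36.5% were above and 38.1% below DMSO, and at 48 h 36.8% were above and 37.4% below. All 3 comparisons share libraries, so the values against DMSO are given side by side and not as separate evidence.

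IGFBP5, a secreted protein that binds insulin-like growth factors, rose the most among the genes named by rule. It had 117, 114 and 116 CPM in the 7-day libraries, against 0.171, 0.634 and 0.615 CPM in the 48 h libraries, and 0.306, 0.197 and 0.0875 CPM in DMSO (log2 fold change 7.93 ± 0.15, adjusted p = 5.89e-18). The gene was near the detection floor in both 48 h groups and was high in all 3 libraries at 7 days. CRCT1, a gene of the epidermal differentiation complex, had 43.4, 42.0 and 41.6 CPM in the 7-day libraries, against 0.513, 0.362 and 0.410 CPM in the 48 h libraries and no count in DMSO (log2 fold change 6.58 ± 0.22, adjusted p = 2.55e-14). THBD, the anticoagulant receptor thrombomodulin, had 49.3, 40.0 and 41.6 CPM in the 7-day libraries, against 2.65, 2.72 and 4.30 CPM in the 48 h libraries (log2 fold change 3.77 ± 0.18, adjusted p = 8.82e-13). The rule that named the genes with the largest changes admitted only genes without overlap between the durations.

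Among the 15 genes with the largest rises, EPHB2, a receptor tyrosine kinase for ephrin-B ligands, had 88.5, 100.5 and 93.9 CPM at 7 days, against 8.64, 6.70 and 7.07 CPM at 48 h and 9.25, 9.96 and 8.58 CPM in DMSO (log2 fold change 3.65 ± 0.10, adjusted p = 9.83e-17). Its 48 h level was slightly below that of DMSO (log2 fold change -0.30, adjusted p = 0.0438), and its 7-day libraries were far above both. ACKR3, an atypical receptor that takes up the chemokine CXCL12, had 26.9, 26.9 and 27.9 CPM in the 7-day libraries, against 1.71, 1.81 and 2.56 CPM in the 48 h libraries (log2 fold change 3.75 ± 0.19, adjusted p = 1.52e-12). NTRK3, the receptor of neurotrophin-3, averaged 16.1 ± 2.90 CPM at 7 days and 0.848 ± 0.539 CPM at 48 h (SD, n = 3 each; log2 fold change 4.21 ± 0.30, adjusted p = 3.87e-10; 4.82 without 48 h replicate 3). CMKLR2, a receptor of the chemoattractant chemerin, averaged 13.5 ± 1.59 CPM at 7 days and 0.369 ± 0.153 CPM at 48 h with no count in DMSO (log2 fold change 5.15 ± 0.33, adjusted p = 2.65e-10). MDGA1, an adhesion protein held by a lipid anchor, averaged 16.1 ± 2.40 CPM at 7 days and 0.881 ± 0.242 CPM at 48 h (log2 fold change 4.15 ± 0.24, adjusted p = 9.19e-12). The membrane mucin MUC17 was highest in replicate 1, with 14.4, 3.53 and 2.34 CPM in the 7-day libraries, against 0.171, 0.272 and 0.820 CPM in the 48 h libraries (log2 fold change 4.04 ± 0.63, adjusted p = 1.92e-05; 4.87 without 48 h replicate 4 and 2.83 without 7-day replicate 1). All 3 libraries at 7 days were above all 3 at 48 h, which the naming rule required.

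CYP26B1, which degrades retinoic acid, showed another course. It had 44.2, 38.8 and 35.8 CPM at 7 days, against 3.59, 2.63 and 5.22 CPM at 48 h and 24.9, 25.6 and 22.4 CPM in DMSO (log2 fold change 3.39 ± 0.15, adjusted p = 2.17e-13). Its 48 h libraries lay below DMSO and its 7-day libraries above DMSO. TCN1, which encodes the vitamin B12 carrier haptocorrin, averaged 14.5 ± 0.439 CPM at 7 days and 1.31 ± 0.215 CPM at 48 h (log2 fold change 3.47 ± 0.22, adjusted p = 2.61e-10). DACT1, a binding partner of the WNT mediator dishevelled, averaged 7.06 ± 0.615 CPM at 7 days and 0.472 ± 0.190 CPM at 48 h with no count in DMSO (log2 fold change 3.89 ± 0.35, adjusted p = 3.43e-07). C4orf54 averaged 7.68 ± 0.464 CPM at 7 days and 0.267 ± 0.163 CPM at 48 h (log2 fold change 4.74 ± 0.42, adjusted p = 8.71e-09). The readthrough genes PEDS1-UBE2V1 (3.76, adjusted p = 0.00327; 5.81 without 48 h replicate 2) and TVP23C-CDRT4 (3.49, adjusted p = 0.000398; 4.34 without 48 h replicate 2) also met the rule. They share exons with their neighbours, the way the counting split the reads can set their values, and DESeq2 gave PEDS1-UBE2V1 an adjusted p of 0.15.

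**Figure D1:**
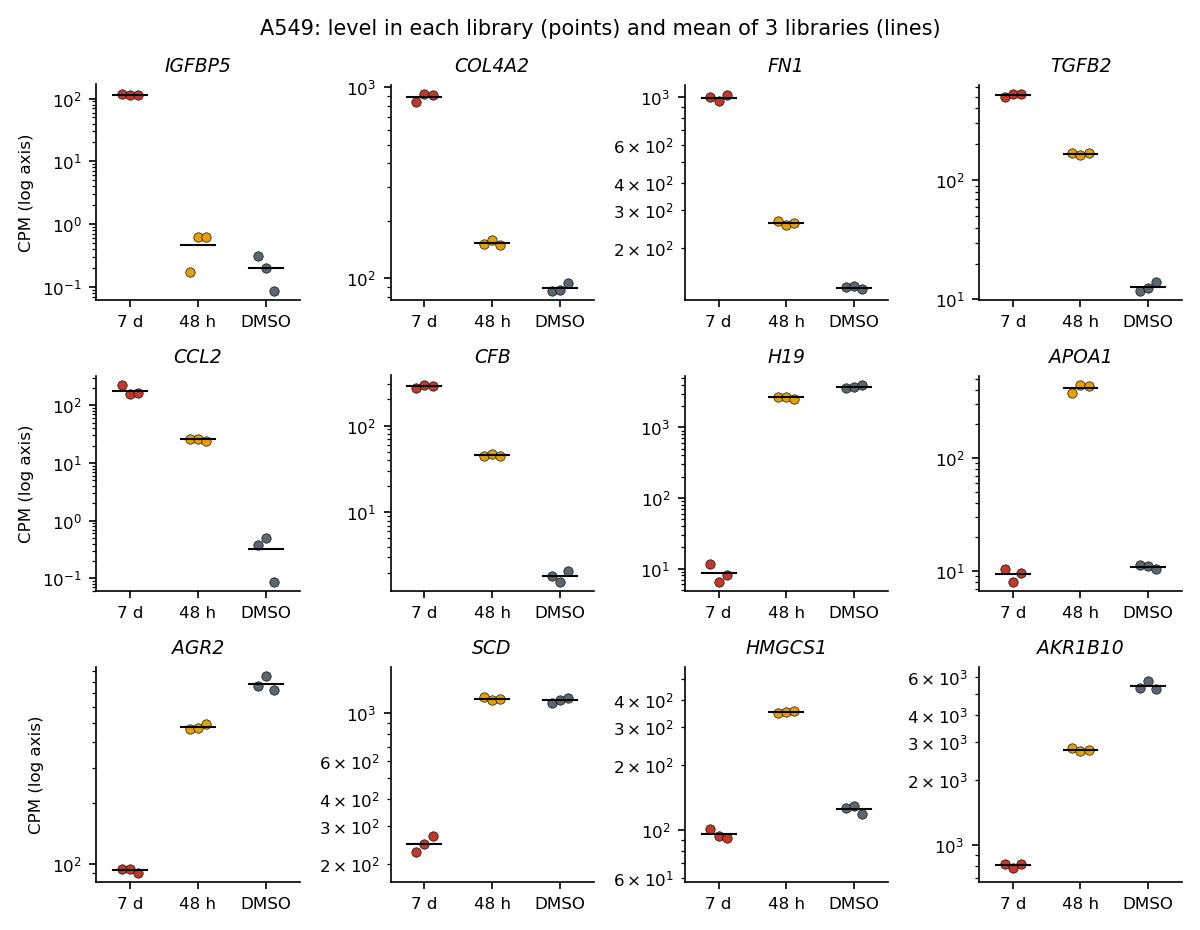
Level in CPM (log axis) of 12 genes in each A549 library at 7 days, at 48 h and in DMSO, with a line at each group mean. IGFBP5, COL4A2, FN1, TGFB2, CCL2 and CFB are highest at 7 days, H19, APOA1, AGR2, SCD, HMGCS1 and AKR1B10 are lower at 7 days than at 48 h, and no gene overlaps between the 2 durations. For IGFBP5, H19 and APOA1 the naming rule required this.

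H19 fell the most among the genes named by rule. It encodes an imprinted long noncoding RNA and had 11.8, 6.55 and 8.02 CPM at 7 days, against 2719, 2679.6 and 2552 CPM at 48 h and 3664, 3735 and 3943 CPM in DMSO (log2 fold change -8.23 ± 0.08, adjusted p = 9.25e-24). The 48 h mean was 301 times the 7-day mean, and the DMSO libraries lay above those of 48 h. IGF2, the growth factor gene that lies beside H19 in the genome and is imprinted with it, had a mean of 0.275 CPM at 7 days and 0.805 CPM at 48 h (-1.5, adjusted p = 0.0313; not called without 48 h replicate 4, 7-day replicate 1, 7-day replicate 2 or 7-day replicate 3, adjusted p = 0.0541 to 0.121). IGF2 was chosen after its values were seen.

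Among the 15 genes with the largest falls, APOA1, the main protein of high-density lipoprotein, had 10.5, 8.06 and 9.52 CPM at 7 days, against 382, 443 and 440.4 CPM at 48 h and 11.3, 11.1 and 10.5 CPM in DMSO (log2 fold change -5.49 ± 0.10, adjusted p = 3.11e-19). Its 48 h libraries were far above both the 7-day and the DMSO libraries. AHSG, which encodes the plasma protein fetuin-A, had 1.62, 1.34 and 1.34 CPM in the 7-day libraries, against 23.4, 26.9 and 26.9 CPM in the 48 h libraries and 1.84, 2.07 and 2.28 CPM in DMSO (log2 fold change -4.15 ± 0.17, adjusted p = 7.12e-14). ORM2, an orosomucoid whose near-identical copy ORM1 can share its reads, averaged 0.277 ± 0.194 CPM at 7 days and 5.58 ± 0.647 CPM at 48 h (log2 fold change -4.28 ± 0.35, adjusted p = 3.19e-09; -4.98 without 7-day replicate 3). CILP, a cartilage matrix protein, averaged 0.333 ± 0.171 CPM at 7 days and 8.62 ± 1.05 CPM at 48 h and 0.233 CPM in DMSO (log2 fold change -4.65 ± 0.32, adjusted p = 1.49e-10). ORM2 averaged 0.828 in DMSO, so these 4 genes were higher at 48 h than in both other groups.

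Of the same 15 genes, MYO1A, the myosin of the intestinal brush border, had 2.91, 2.18 and 2.67 CPM in the 7-day libraries, against 35.1, 35.1 and 33.9 CPM in the 48 h libraries (log2 fold change -3.74 ± 0.15, adjusted p = 3.6e-14). VILL, a relative of the actin-bundling protein villin, averaged 1.27 ± 0.404 CPM at 7 days and 19.96 ± 1.63 CPM at 48 h (log2 fold change -3.96 ± 0.23, adjusted p = 1.48e-11). NEB, the giant actin-binding protein nebulin, had 17.1, 16.0 and 14.4 CPM at 7 days, against 223, 232 and 235 CPM at 48 h and 91.5, 75.8 and 84.0 CPM in DMSO (log2 fold change -3.86 ± 0.09, adjusted p = 4.2e-18). Of the enzymes, GPT (alanine aminotransferase) averaged 1.99 ± 0.498 CPM at 7 days and 17.5 ± 1.64 CPM at 48 h (log2 fold change -3.14 ± 0.18, adjusted p = 1.46e-11), SDS (serine dehydratase) 0.720 ± 0.203 CPM at 7 days and 8.99 ± 0.548 CPM at 48 h (log2 fold change -3.62 ± 0.22, adjusted p = 2.83e-11) and TGM3 (a transglutaminase) 0.876 ± 0.561 CPM at 7 days and 8.90 ± 1.09 CPM at 48 h (log2 fold change -3.31 ± 0.32, adjusted p = 2.85e-08). HMGA2, a chromatin protein of embryonic tissue, averaged 0.658 CPM at 7 days, 7.42 CPM at 48 h and 54.7 CPM in DMSO (log2 fold change -3.46 ± 0.24, adjusted p = 2.48e-10), a stepwise order with no overlap between the groups. ZCCHC3, a cofactor in the sensing of foreign nucleic acid, had 0.809, 0 and 0 CPM at 7 days, against 8.04, 11.1 and 6.86 CPM at 48 h and 17.7, 23.0 and 14.8 CPM in DMSO (log2 fold change -4.92 ± 0.79, adjusted p = 2.6e-05), and without 7-day replicate 1 it had no count left at 7 days. In a fit of all 90 libraries ZCCHC3 also fell steeply outside A549 (-8.75 to -4.14), except for a rise in RT112 (6.02). It had no count in 5 of the 12 groups given a line's own drug. Its value is therefore uncertain, and whether the counting set it was not tested. The noncoding RNA 7SK, which holds the elongation kinase P-TEFb inactive, averaged 1.49 ± 0.279 CPM at 7 days and 47.9 ± 11.9 CPM at 48 h (log2 fold change -5.01 ± 0.27, adjusted p = 3.33e-12). CDRT4, which overlaps the readthrough gene named above, averaged 0.665 ± 0.730 CPM at 7 days and 5.98 ± 0.726 CPM at 48 h (log2 fold change -3.15 ± 0.88, adjusted p = 0.00553; -4.53 without 7-day replicate 3). 7SK has many near-identical copies in the genome, and its value is uncertain.

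Of 20 tested genes of the RAS, RAF, MEK and ERK cascade, 8 were higher at 7 days and 6 lower, with a median log2 fold change of 0.06. MAP2K1, which encodes MEK1, had 149, 166 and 153 CPM at 7 days, against 66.7, 64.9 and 71.8 CPM at 48 h and 82.7, 86.3 and 90.1 CPM in DMSO (log2 fold change 1.2 ± 0.05, adjusted p = 2.04e-13), so its 48 h libraries were the lowest and its 7-day libraries the highest. MAP2K2, which encodes MEK2, averaged 141 ± 5.92 CPM at 7 days and 155 ± 1.98 CPM at 48 h (log2 fold change -0.14 ± 0.04, adjusted p = 0.00982; not called without 7-day replicate 1, adjusted p = 0.0562). PEA15, a protein that holds ERK in the cytoplasm, had the largest change of the list with 294, 338 and 330.1 CPM in the 7-day libraries, against 86.0, 87.7 and 90.2 CPM in the 48 h libraries (log2 fold change 1.87 ± 0.07, adjusted p = 1.13e-14). The RAS relative MRAS averaged 50.0 CPM at 7 days, 25.4 CPM at 48 h and 3.25 CPM in DMSO (0.97, adjusted p = 4.16e-08). RGL1, an exchange factor for RAL, averaged 43.3 CPM at 7 days, 22.7 CPM at 48 h and 3.11 CPM in DMSO (0.93, adjusted p = 2.61e-08).

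Most, but not all, ERK output and feedback genes remained below DMSO at both durations. Over 20 tested members the median log2 fold change was -2.05 for 7 days against DMSO and -1.91 for 48 h against DMSO, with 15 and 16 members lower (38.1% and 37.4% of all tested genes were lower). Above DMSO were 1 member at 7 days and 2 at 48 h (36.5% and 36.8% of all tested genes). Between the durations 3 members were higher (6 without a filter on low counts), 2 were lower and the median was 0.20. ETV4 and ETV5, transcription factors that ERK induces, were among the members with a deep reduction. ETV4 had 0.162, 0.336 and 0.334 CPM at 7 days, against 0.257, 0 and 0.410 CPM at 48 h and 77.5, 69.6 and 73.0 CPM in DMSO, and ETV5 0.324, 0.168 and 0.334 CPM at 7 days, against 0.342, 0.544 and 0.410 CPM at 48 h and 64.5, 68.1 and 64.8 CPM in DMSO. SPRY4, a feedback inhibitor of receptor signalling, averaged 0.433 CPM at 7 days, 0.275 CPM at 48 h and 22.0 CPM in DMSO, and DUSP6, the phosphatase of ERK itself, 2.83 CPM at 7 days, 2.22 CPM at 48 h and 27.8 CPM in DMSO. Neither ETV4, ETV5, SPRY4 nor DUSP6 passed the test between 7 days and 48 h, so no change was resolved. Whether low counts or the spread between libraries limited this was not tested. CCND1, the cyclin D1 gene, had 95.0, 74.9 and 68.5 CPM at 7 days, against 76.7, 78.2 and 73.7 CPM at 48 h and 339, 332 and 331 CPM in DMSO (log2 fold change 0.06 ± 0.07, adjusted p = 0.518). Its 2 durations overlapped, and both were below DMSO.

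DUSP5, a nuclear phosphatase of ERK, was the member with the largest called fall, with 148, 60.8 and 57.6 CPM in the 7-day libraries, against 187, 189 and 219.6 CPM in the 48 h libraries (log2 fold change -1.16 ± 0.21, adjusted p = 0.000117). DUSP5 had 228, 232 and 230 CPM in DMSO, and its 48 h level was not called against DMSO (-0.21, adjusted p = 0.308). IER3, a survival gene induced by stress and growth signals, had 566, 545 and 576 CPM in the 7-day libraries, against 313, 314 and 310.4 CPM in the 48 h libraries (log2 fold change 0.85 ± 0.06, adjusted p = 1.31e-10). With 199, 216 and 212 CPM in DMSO, IER3 was above DMSO at 7 days (1.43, adjusted p = 4.72e-15) and at 48 h (0.58, adjusted p = 1.19e-08). MYC averaged 201 CPM at 7 days, 138 CPM at 48 h and 249 CPM in DMSO (log2 fold change 0.55 ± 0.14, adjusted p = 0.00321). The cytokine gene LIF averaged 107 CPM at 7 days, 69.6 CPM at 48 h and 107 CPM in DMSO (log2 fold change 0.62 ± 0.14, adjusted p = 0.000956). SPRED1, an inhibitor of RAS activation, was the least changed (-0.02).

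The 7-day library of replicate 1 stood apart in these genes. Its counts differed from those of the other 7-day libraries by a chi-square per degree of freedom of 3.97 and 3.64, against 1.52 between replicates 2 and 3. It was more than 1.5 times above both of the others in 713 of 14810 genes (4.81%), in 11 of 20 ERK output genes (55%), in 8 of 19 immediate-early genes (42.1%) and in 7 of 18 inflammatory genes (38.9%). EGR1, an early growth response factor, had 127, 9.58 and 17.4 CPM in the 7-day libraries, against 82.1, 81.8 and 66.0 CPM in the 48 h libraries, and FOSL1, a subunit of the AP-1 factor, 42.1, 2.35 and 3.68 CPM in the 7-day libraries, against 9.92, 8.97 and 11.0 CPM in the 48 h libraries. FOSB, another subunit of AP-1, had 353, 34.8 and 33.4 CPM in the 7-day libraries, against 64.8, 52.7 and 42.3 CPM in the 48 h libraries, and EPHA2, an ephrin receptor under ERK control, 137, 28.1 and 30.9 CPM in the 7-day libraries, against 44.6, 41.8 and 44.5 CPM in the 48 h libraries. Replicate 1 lay above every 48 h library in these 4 genes, and replicates 2 and 3 lay below them. The genes were chosen after their values were seen.

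Without replicate 1 the ERK output list had a median of -0.66, with 3 members higher and 5 lower. The genes that fell, SPRY1, SPRY2, EPHA2 and SPRED2 chosen after their values were seen, were DUSP5 (-1.74, adjusted p = 4.65e-10), SPRY1 (-2.07, adjusted p = 0.0144), SPRY2 (-1.38, adjusted p = 0.034), EPHA2 (-0.56, adjusted p = 0.0385) and SPRED2 (-0.53, adjusted p = 0.0112). The 3 that rose were IER3 (0.84, adjusted p = 4.39e-10), MYC (0.34, adjusted p = 0.0374) and LIF (0.37, adjusted p = 0.0129). The immediate-early list had 6 members higher and 4 lower (7 without a filter on low counts) with a median of 0.09, and without replicate 1 it had 4 higher and 8 lower with a median of -0.27. EGR1 fell without replicate 1 (-2.51, adjusted p = 6.1e-06), and IER2 (0.03 in all libraries) fell by 0.29 (adjusted p = 0.000459). Without 7-day replicate 2 instead, 2 immediate-early members were lower. Beyond leaving it out, the part of replicate 1 in the results was not tested.

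**Figure D2:**
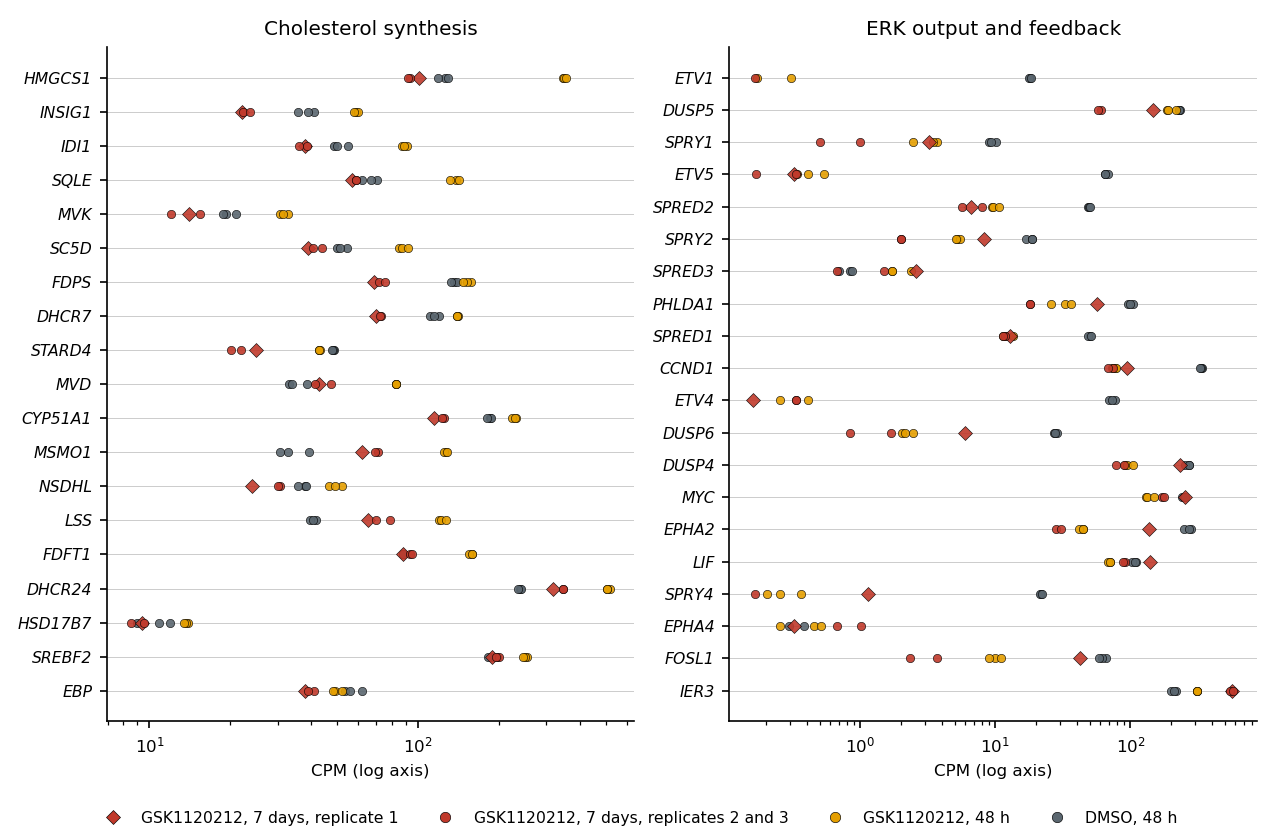
CPM (log axis) in each A549 library of 19 of the 22 cholesterol synthesis genes and the 20 ERK output genes at 7 days, 48 h and in DMSO, with the 7-day library of replicate 1 drawn as a diamond and libraries with no count not drawn. The cholesterol genes are tight within each group, while for 11 of 20 ERK output genes the diamond lies more than 1.5 times above both other 7-day libraries.

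Among the immediate-early genes that were higher at 7 days, ATF3, a stress-induced repressor, had 608, 318 and 300.2 CPM in the 7-day libraries, against 169, 172 and 185 CPM in the 48 h libraries (log2 fold change 1.22 ± 0.19, adjusted p = 2.23e-05). KLF2, a Krüppel-like factor, averaged 256 CPM at 7 days, 125 CPM at 48 h and 56.0 CPM in DMSO (log2 fold change 1.04 ± 0.12, adjusted p = 4.69e-07). Both stayed higher without replicate 1, by 0.82 each on the log2 scale. BTG2, an antiproliferative gene, averaged 11.8 CPM at 7 days, 24.3 CPM at 48 h and 7.04 CPM in DMSO (log2 fold change -1.04 ± 0.12, adjusted p = 4.37e-07).

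Of 18 tested growth factor receptors and adaptors 7 were higher and 6 lower (27.6% and 23.7% of all tested genes). AXL, the receptor of GAS6, had 31.7, 34.1 and 25.2 CPM at 7 days, against 12.8, 10.2 and 11.1 CPM at 48 h and 57.9, 62.9 and 65.3 CPM in DMSO (log2 fold change 1.41 ± 0.11, adjusted p = 1.61e-09), and remained below DMSO. IRS1, the adaptor of the insulin and IGF1 receptors, averaged 321 CPM at 7 days, 161 CPM at 48 h and 109 CPM in DMSO (log2 fold change 1.00 ± 0.05, adjusted p = 4.12e-12). ROR1, a receptor of WNT5A, averaged 4.80 ± 1.04 CPM at 7 days and 2.12 ± 0.0922 CPM at 48 h (log2 fold change 1.17 ± 0.21, adjusted p = 7.74e-05). FGFR4 averaged 92.2 ± 3.39 CPM at 7 days and 190.2 ± 3.55 CPM at 48 h (log2 fold change -1.04 ± 0.06, adjusted p = 3.66e-12). FRS2, the adaptor of FGF receptors, was the least changed (0.03). Among members chosen after their values were seen, EGFR averaged 268 CPM at 7 days, 387 CPM at 48 h and 252 CPM in DMSO (-0.53, adjusted p = 9.42e-10). ERBB3 averaged 152 CPM at 7 days, 205 CPM at 48 h and 101 CPM in DMSO (-0.43, adjusted p = 3.18e-08).

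Growth factor ligands included larger changes, with 10 of 19 tested members higher, 6 lower and a median of 0.37. PDGFB, a platelet-derived growth factor chain, had 47.6, 65.7 and 56.5 CPM at 7 days, against 11.0, 7.70 and 8.61 CPM at 48 h and 0.229, 0.197 and 0.350 CPM in DMSO (log2 fold change 2.63 ± 0.14, adjusted p = 3.82e-12), a rise at each step. FGF1 averaged 4.03 CPM at 7 days, 0.632 CPM at 48 h and 0.0292 CPM in DMSO (log2 fold change 2.68 ± 0.40, adjusted p = 1.78e-05), with 1 count over all DMSO libraries. The EGF receptor ligand TGFA averaged 6.61 CPM at 7 days, 2.47 CPM at 48 h and 1.05 CPM in DMSO (log2 fold change 1.43 ± 0.23, adjusted p = 3.32e-05). NRG1, the ligand of ERBB3, averaged 54.4 CPM at 7 days, 24.6 CPM at 48 h and 29.2 CPM in DMSO (log2 fold change 1.15 ± 0.07, adjusted p = 8.79e-12). EGF itself was the least changed (-0.12). AREG, another EGF receptor ligand and chosen after its values were seen, averaged 45.9 CPM at 7 days, 78.8 CPM at 48 h and 51.1 CPM in DMSO (-0.78, adjusted p = 3.98e-05).

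Proliferation genes were low at both durations. All 31 tested genes of G1/S and replication were below DMSO at 7 days and at 48 h, with median log2 fold changes of -3.17 and -2.99. Between the durations 3 were higher (5 without 7-day replicate 1) and 10 lower, with a median of -0.12. CDT1, which licenses replication origins, had 5.02, 7.56 and 7.85 CPM at 7 days, against 10.5, 12.2 and 10.9 CPM at 48 h and 80.9, 92.3 and 94.9 CPM in DMSO (log2 fold change -0.72 ± 0.16, adjusted p = 0.00065). TYMS, the thymidylate synthase gene, averaged 17.0 CPM at 7 days, 24.4 CPM at 48 h and 169.9 CPM in DMSO (-0.52, adjusted p = 4.12e-05). The polymerase subunit POLA1 averaged 22.0 CPM at 7 days, 14.7 CPM at 48 h and 76.6 CPM in DMSO (0.58, adjusted p = 4.65e-05). The repressor E2F8 averaged 0.497 CPM at 7 days, 1.17 CPM at 48 h and 11.7 CPM in DMSO (-1.21, adjusted p = 0.0265; not called without 48 h replicate 2, 7-day replicate 1 or 7-day replicate 3, adjusted p = 0.0666 to 0.195). E2F1, the activator of S-phase genes, was the least changed (0.05).

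All 26 mitosis genes were also below DMSO at both durations, with medians of -3.29 at 7 days and -2.84 at 48 h, and 18 of the 26 fell between 48 h and 7 days while none rose. MKI67, the marker of cycling cells, had 42.9, 40.0 and 40.4 CPM at 7 days, against 81.2, 85.5 and 72.3 CPM at 48 h and 394, 411 and 418 CPM in DMSO (log2 fold change -0.96 ± 0.06, adjusted p = 1.4e-10). CDC20, the activator of the anaphase-promoting complex, averaged 8.45 CPM at 7 days, 15.4 CPM at 48 h and 108 CPM in DMSO (-0.86, adjusted p = 1.05e-05). The kinesin KIF20A averaged 6.56 ± 1.21 CPM at 7 days and 11.0 ± 0.812 CPM at 48 h (-0.74, adjusted p = 0.00021). UBE2C, a ubiquitin conjugase of mitotic exit, averaged 5.69 ± 0.777 CPM at 7 days and 9.29 ± 1.21 CPM at 48 h (-0.72, adjusted p = 0.000322). CDK1 was the least changed (0.05).

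Among 13 tested CDK inhibitors, cyclins and pocket proteins 5 were higher and 4 lower (2 without 7-day replicate 1 or without 48 h replicate 3), with a median of 0.20 that became -0.02 without 7-day replicate 1. Of all tested genes 27.6% were higher and 23.7% lower. RBL2, the pocket protein p130 of resting cells, averaged 64.4 CPM at 7 days, 41.0 CPM at 48 h and 50.8 CPM in DMSO (log2 fold change 0.65 ± 0.06, adjusted p = 4.45e-08). The inhibitor CDKN2D averaged 5.47 CPM at 7 days, 3.17 CPM at 48 h and 3.54 CPM in DMSO (log2 fold change 0.78 ± 0.22, adjusted p = 0.00497). CDK6 averaged 99.7 CPM at 7 days, 137 CPM at 48 h and 108 CPM in DMSO (log2 fold change -0.46 ± 0.06, adjusted p = 8.2e-07). The inhibitor CDKN1C averaged 1.66 CPM at 7 days, 2.96 CPM at 48 h and 1.12 CPM in DMSO (-0.82, adjusted p = 0.0267; not called without 48 h replicate 3, 48 h replicate 4, 7-day replicate 1 or 7-day replicate 3, adjusted p = 0.0556 to 0.101). CDKN2C was the least changed (-0.12). Of 24 p53 target genes 11 were lower and 5 higher, with a median of -0.17. MDM2, the ubiquitin ligase of p53, had 43.2, 44.4 and 46.9 CPM at 7 days, against 91.0, 86.2 and 82.2 CPM at 48 h and 128, 136 and 130.2 CPM in DMSO (log2 fold change -0.95 ± 0.06, adjusted p = 1.99e-11). FDXR, a mitochondrial electron carrier, averaged 10.9 CPM at 7 days, 21.2 CPM at 48 h and 36.5 CPM in DMSO (-0.95, adjusted p = 4.61e-07). The apoptosis effector BAX averaged 38.4 CPM at 7 days, 62.5 CPM at 48 h and 102 CPM in DMSO (-0.71, adjusted p = 4.27e-08). TIGAR was the least changed (0.02).

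FOXO target genes, which are active when insulin and AKT signalling is low, were higher in 9 of 15 tested members and lower in 3 (5 without a filter on low counts), with a median of 0.33. PINK1, the kinase that marks damaged mitochondria, had 94.8, 97.4 and 93.9 CPM at 7 days, against 52.4, 54.0 and 53.3 CPM at 48 h and 13.2, 14.01 and 16.3 CPM in DMSO (log2 fold change 0.84 ± 0.06, adjusted p = 6.41e-10). PIK3IP1, an inhibitor of PI3 kinase, averaged 5.69 CPM at 7 days, 3.10 CPM at 48 h and 0.277 CPM in DMSO (0.86, adjusted p = 0.00864). The repressor BCL6 averaged 17.8 CPM at 7 days, 10.2 CPM at 48 h and 8.40 CPM in DMSO (0.81, adjusted p = 4.84e-05). FOXO1 averaged 56.7 CPM at 7 days, 33.2 CPM at 48 h and 26.1 CPM in DMSO (0.77, adjusted p = 4.75e-05). TRIB1 was the least changed (-0.06). In the BCL2 family 7 of 15 tested members were higher and 3 lower. Of the promoters of cell death, BAD averaged 40.4 CPM at 7 days, 17.3 CPM at 48 h and 14.2 CPM in DMSO (1.22, adjusted p = 3.59e-11). BOK averaged 40.2 CPM at 7 days, 17.6 CPM at 48 h and 6.98 CPM in DMSO (1.19, adjusted p = 1.91e-10). BMF averaged 30.7 CPM at 7 days, 18.1 CPM at 48 h and 1.02 CPM in DMSO (0.77, adjusted p = 0.000426). The survival gene BCL2A1 averaged 11.4 CPM at 7 days, 5.19 CPM at 48 h and 0.610 CPM in DMSO (1.13, adjusted p = 0.000468). BCL2L11, which encodes BIM, had nearly equal means at both durations (87.1 CPM at 7 days, 87.3 CPM at 48 h and 27.2 CPM in DMSO).

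The mesenchymal and matrix list had 13 of 20 tested members higher and 1 lower, with a median of 0.91. Against DMSO the median was 2.69 at 7 days and 1.12 at 48 h. COL4A2, a basement membrane collagen chain, had 841, 919 and 907 CPM at 7 days, against 151, 158 and 149.7 CPM at 48 h and 86.3, 87.4 and 94.3 CPM in DMSO (log2 fold change 2.54 ± 0.05, adjusted p = 3.11e-19). TAGLN, an actin-binding protein of contractile cells, averaged 189 CPM at 7 days, 27.1 CPM at 48 h and 2.33 CPM in DMSO (log2 fold change 2.80 ± 0.07, adjusted p = 5.78e-18). The transcription factor SNAI2 averaged 1.81 CPM at 7 days, 0.127 CPM at 48 h and 0.0255 CPM in DMSO (log2 fold change 3.75 ± 0.65, adjusted p = 6.24e-05). SPARC, a matrix protein that binds collagen, had 81 counts in all at 7 days and 1 at 48 h, a ratio of 145 with a 95% exact counting interval of 25.3 to 5807 that covers counting error only (log2 fold change 6.70 ± 0.68, adjusted p = 1.54e-07; 8.51 without 48 h replicate 4). CALD1 was the least changed (-0.02), and ACTA2, smooth muscle actin, was the member that fell (5.03 ± 0.773 CPM at 7 days and 10.3 ± 0.520 CPM at 48 h; -1.04, adjusted p = 5.61e-05), with 1 further member, SNAI1, called lower without 7-day replicate 1. FN1, fibronectin, had 1001, 953 and 1015 CPM at 7 days, against 266, 254 and 261 CPM at 48 h and 131, 132 and 128 CPM in DMSO (log2 fold change 1.93 ± 0.04, adjusted p = 4.01e-18) and was chosen after its values were seen. COL1A1, a fibril collagen and a marker of fibroblasts, had 251, 182 and 196 CPM at 7 days, against 91.2, 94.4 and 88.2 CPM at 48 h and 15.4, 15.6 and 18.4 CPM in DMSO (log2 fold change 1.2 ± 0.09, adjusted p = 3.21e-10). COL3A1, COL1A2, PDGFRA and PDGFRB did not pass the filter on low counts. Of the 13 fibroblast and endothelial markers in the gene list, which counts ACTA2 among them, 3 passed the filter, and COL1A1 was higher, ACTA2 lower and LUM not called (0.39, adjusted p = 0.376), and the part of such cells in the matrix genes was not tested.

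Matrix proteases and their inhibitors were higher in 10 of 15 tested members and lower in 2, with a median of 0.45. The metalloprotease inhibitors TIMP1 and TIMP3 averaged 37.8 CPM at 7 days, 9.37 CPM at 48 h and 6.03 CPM in DMSO (2.01, adjusted p = 1.11e-10) and 4.37 CPM at 7 days, 0.301 CPM at 48 h and 0.0510 CPM in DMSO (3.78, adjusted p = 7.16e-07). The metalloprotease MMP10 averaged 3.70 ± 0.709 CPM at 7 days and 0.243 ± 0.0868 CPM at 48 h (3.85, adjusted p = 8.17e-07). MMP24 was the least changed (0.05).

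The TGF-beta and BMP list had 15 of 26 tested members higher and 6 lower, with a median of 0.43. TGFB1 had 53.1, 58.0 and 49.6 CPM at 7 days, against 12.1, 10.7 and 12.1 CPM at 48 h and 14.6, 16.4 and 16.6 CPM in DMSO (log2 fold change 2.2 ± 0.09, adjusted p = 2.25e-14). TGFB2, chosen after its values were seen, had 503, 526 and 525 CPM at 7 days, against 169, 162 and 169 CPM at 48 h and 11.9, 12.5 and 14.1 CPM in DMSO (log2 fold change 1.64 ± 0.06, adjusted p = 4.75e-15). The ligand BMP2 averaged 107 CPM at 7 days, 30.6 CPM at 48 h and 2.03 CPM in DMSO (log2 fold change 1.82 ± 0.12, adjusted p = 6.13e-11). PMEPA1, a target gene and feedback inhibitor of TGF-beta signalling, had 1117, 1210.1 and 1188 CPM at 7 days, against 322, 309.9 and 316 CPM at 48 h and 56.7, 53.7 and 56.6 CPM in DMSO (log2 fold change 1.89 ± 0.05, adjusted p = 7.84e-17). SMAD9, a signal carrier of the BMP branch, fell (1.16 CPM at 7 days, 5.76 CPM at 48 h and 5.11 CPM in DMSO; log2 fold change -2.31 ± 0.30, adjusted p = 2.28e-06), and BMP4 was the least changed (-0.01). TGFB3, also chosen after its values were seen, averaged 2.81 ± 0.766 CPM at 7 days and 1.502 ± 0.199 CPM at 48 h (0.90, adjusted p = 0.0255; not called without 48 h replicate 2, 48 h replicate 4, 7-day replicate 1 or 7-day replicate 2, adjusted p = 0.062 to 0.132).

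YAP and TEAD targets were higher in 13 of 21 members and lower in 3, with a median of 0.35. CCDC80, a matrix protein, had 315, 376 and 341 CPM at 7 days, against 36.9, 31.5 and 30.7 CPM at 48 h and 2.45, 1.97 and 1.66 CPM in DMSO (log2 fold change 3.37 ± 0.07, adjusted p = 1.78e-18). CCN2, a matricellular growth factor, had 397, 282 and 325 CPM at 7 days, against 82.6, 81.1 and 78.5 CPM at 48 h and 288, 288 and 297 CPM in DMSO (log2 fold change 2.05 ± 0.18, adjusted p = 1.11e-08), so it was lowest at 48 h and near the DMSO level at 7 days. Its relative CCN1 averaged 383 CPM at 7 days, 158 CPM at 48 h and 90.3 CPM in DMSO (log2 fold change 1.28 ± 0.14, adjusted p = 2.21e-07), and CRIM1 was the least changed (-0.02). Among 22 genes of the actin cytoskeleton, many of them targets of SRF and its partner MRTF, 13 were higher and 4 lower, with a median of 0.34. PDLIM7, a scaffold on actin filaments, had 232, 239 and 242 CPM at 7 days, against 49.8, 57.2 and 54.7 CPM at 48 h and 19.2, 22.6 and 21.8 CPM in DMSO (log2 fold change 2.14 ± 0.06, adjusted p = 1.12e-16). CNN1, calponin of smooth muscle, averaged 23.2 ± 3.90 CPM at 7 days and 5.04 ± 1.06 CPM at 48 h with no count in DMSO (log2 fold change 2.18 ± 0.20, adjusted p = 3.23e-08). FHL1 averaged 1.49 ± 0.308 CPM at 7 days and 0.375 ± 0.189 CPM at 48 h (1.97, adjusted p = 0.0124; not called without 48 h replicate 2 or 7-day replicate 2, adjusted p = 0.0557 to 0.0619). MYL9, a myosin light chain, averaged 2.40 ± 1.89 CPM at 7 days and 0.625 ± 0.169 CPM at 48 h (1.93, adjusted p = 0.00919; not called without 7-day replicate 2, adjusted p = 0.115) and TAGLN2 was the least changed (0.00). FLNA, filamin A and chosen after its values were seen, averaged 12108 CPM at 7 days, 7369.5 CPM at 48 h and 2572 CPM in DMSO (0.72, adjusted p = 1.73e-14).

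WNT and Notch genes were higher in 14 of 23 tested members and lower in 5, with a median of 0.41. JAG1, a Notch ligand, had 367, 279 and 278 CPM at 7 days, against 80.2, 87.4 and 80.2 CPM at 48 h and 330.4, 289 and 318 CPM in DMSO (log2 fold change 1.90 ± 0.08, adjusted p = 1.35e-13). AXIN2, a feedback target of WNT, averaged 34.2 CPM at 7 days, 14.2 CPM at 48 h and 12.4 CPM in DMSO (log2 fold change 1.26 ± 0.12, adjusted p = 2.59e-08). DKK3 averaged 14.1 CPM at 7 days, 1.82 CPM at 48 h and 0.263 CPM in DMSO (log2 fold change 2.97 ± 0.23, adjusted p = 1.56e-09). The ligand WNT5A averaged 3.04 CPM at 7 days, 7.76 CPM at 48 h and 16.9 CPM in DMSO (log2 fold change -1.34 ± 0.21, adjusted p = 1.58e-05), and LEF1 was the least changed (-0.04).

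**Figure D3:**
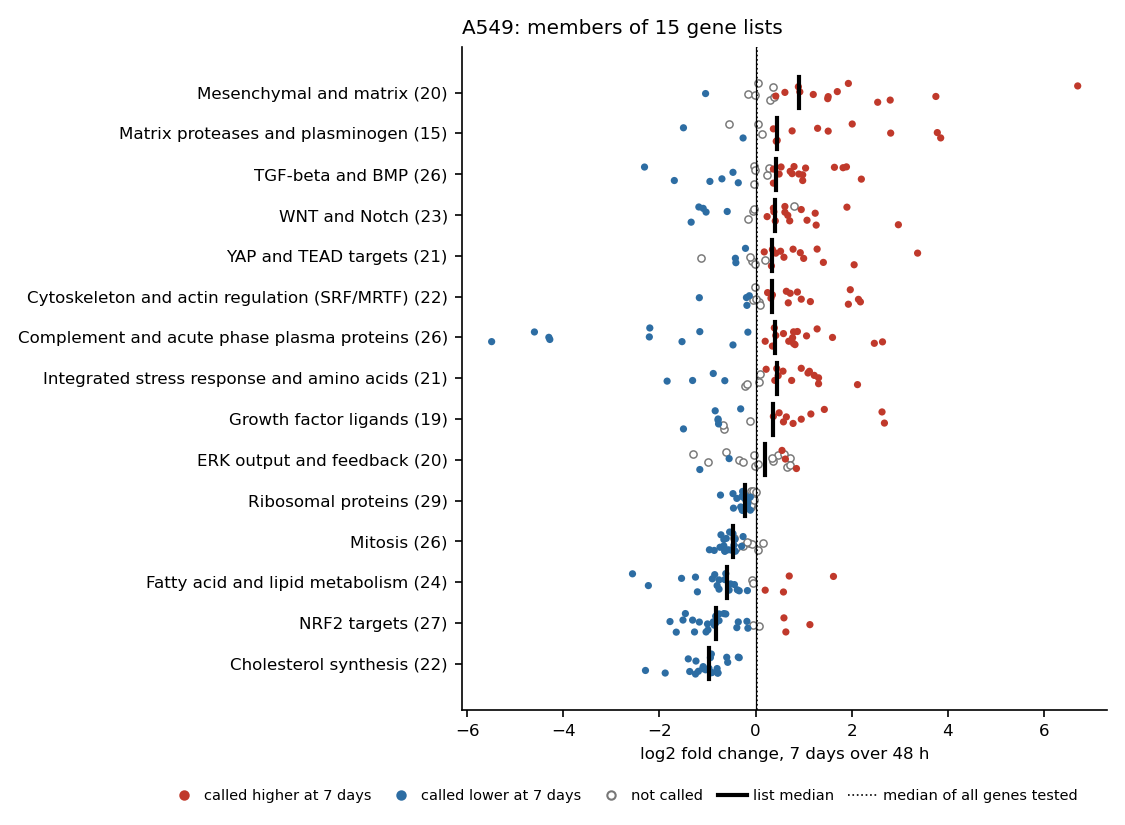
Log2 fold change of 7 days over 48 h in A549 for the tested members of 15 gene lists, 1 point per gene (red called higher, blue called lower, open not called), with a thick bar at the list median and a dotted line at the median of all tested genes (0.02). The cholesterol list lies wholly below 0 (median -0.96), the NRF2 list mostly below (-0.83) and the mesenchymal and matrix list mostly above (0.91).

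Epithelial genes moved in both directions, with 9 of 22 tested members higher and 10 lower (median 0.05). KRT7, a simple epithelial keratin, had 4244, 4496 and 4392 CPM at 7 days, against 1789, 1783 and 1732 CPM at 48 h and 1628, 1656 and 1583 CPM in DMSO (log2 fold change 1.31 ± 0.03, adjusted p = 4.2e-18). KRT15, a keratin of basal cells, averaged 40.1 CPM at 7 days, 139 CPM at 48 h and 12.8 CPM in DMSO (log2 fold change -1.79 ± 0.07, adjusted p = 6.09e-14). ESRP2, a splicing factor of epithelia, averaged 0.552 CPM at 7 days, 3.09 CPM at 48 h and 0.481 CPM in DMSO (log2 fold change -2.46 ± 0.44, adjusted p = 9.2e-05). CDH1, the E-cadherin gene and chosen after its values were seen, averaged 721 CPM at 7 days, 1045 CPM at 48 h and 381 CPM in DMSO (-0.54, adjusted p = 2.59e-10), and EPCAM was the least changed (0.05).

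Of 25 listed markers of alveoli and airways 11 passed the filter, 4 of them higher (2 without 7-day replicate 2 or with only the 2 groups compared) and 5 lower (3 at 5 CPM or more). The higher members were ABCA3, MUC1, CAV1 and CLIC5. ABCA3 had 37.4, 36.0 and 40.3 CPM at 7 days, against 20.6, 17.8 and 18.9 CPM at 48 h and 2.29, 3.06 and 2.63 CPM in DMSO (log2 fold change 0.99 ± 0.09, adjusted p = 2.6e-08), and the membrane mucin MUC1 averaged 122 CPM at 7 days, 94.1 CPM at 48 h and 4.13 CPM in DMSO (0.38, adjusted p = 0.00127), both chosen after their values were seen. SFTPD, surfactant protein D, had 1.62, 2.52 and 1.84 CPM at 7 days, against 7.70, 8.15 and 7.17 CPM at 48 h and 0.306, 0.197 and 0.613 CPM in DMSO (log2 fold change -1.94 ± 0.24, adjusted p = 7.38e-07). The gel-forming mucin MUC5AC averaged 2.19 CPM at 7 days, 19.4 CPM at 48 h and 95.8 CPM in DMSO (log2 fold change -3.13 ± 0.18, adjusted p = 8.57e-12). MUC5B, chosen after its values were seen, averaged 83.0 CPM at 7 days, 169.6 CPM at 48 h and 7123 CPM in DMSO (-1.03, adjusted p = 3.59e-06). Mucin genes hold repeats and close relatives, and their counting is uncertain. NAPSA, an aspartic protease of alveolar cells, had 3 counts at 7 days and 64 at 48 h, a 48 h over 7-day ratio of 11.9 with a counting interval of 3.89 to 59.2 (log2 fold change -3.47 ± 0.59, adjusted p = 4.88e-05; -4.39 without 7-day replicate 2). CLIC5, a chloride channel protein of flat alveolar cells, had 19 counts at 7 days and none at 48 h, at least 11.3-fold higher against a floor of 3 counts over the group. CAV1 was the least changed of the list (0.13, adjusted p = 0.015; not called without 48 h replicate 3, 48 h replicate 4 or 7-day replicate 2, adjusted p = 0.0509 to 0.126).

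Endoderm factors and mucins were higher in 8 of 28 tested members and lower in 8 (5 without 7-day replicate 2 or without 48 h replicate 3). These counts lie near the shares of all tested genes, of which 27.6% were higher and 23.7% lower. AGR2, a protein disulfide isomerase of mucous cells, had 94.8, 94.1 and 90.5 CPM at 7 days, against 466, 469 and 491 CPM at 48 h and 759, 849 and 724 CPM in DMSO (log2 fold change -2.35 ± 0.06, adjusted p = 2.15e-17), a fall at each step. CEACAM5, the carcinoembryonic antigen, had 371, 368 and 379 CPM at 7 days, against 117, 112 and 119 CPM at 48 h and 4.59, 3.35 and 3.59 CPM in DMSO (log2 fold change 1.69 ± 0.06, adjusted p = 7.11e-15). Its relative CEACAM6, which can share reads with it, averaged 866 CPM at 7 days, 304 CPM at 48 h and 136 CPM in DMSO (log2 fold change 1.51 ± 0.04, adjusted p = 3.64e-17). The membrane mucin MUC3A averaged 216 CPM at 7 days, 85.8 CPM at 48 h and 7.06 CPM in DMSO (log2 fold change 1.33 ± 0.06, adjusted p = 8.28e-13), and TFF1 was the least changed (0.05). All 4 tested urothelial markers were lower. The uroplakin UPK3B averaged 24.3 ± 0.929 CPM at 7 days and 98.4 ± 9.41 CPM at 48 h (-2.01, adjusted p = 2.09e-13). UPK1B averaged 127 ± 7.47 CPM at 7 days and 264 ± 8.89 CPM at 48 h (-1.06, adjusted p = 3.48e-14), while the factors GATA3 and PPARG changed by -1.38 and -1.21. Of 2 tested gastric markers VIL1 was higher (0.28) and CDH17 lower (-0.66), and of 3 tested melanocyte markers MITF was higher (18.1 ± 0.340 CPM at 7 days and 8.75 ± 0.435 CPM at 48 h; 1.05, adjusted p = 6e-07).

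Complement and plasma protein genes all passed the test, 16 of 26 higher and 10 lower, with a median of 0.41. The list split between a group that fell steeply and a group that rose. Beside APOA1 and ORM2, ALB, serum albumin, had 4 counts at 7 days and 149 at 48 h, or 0.220 ± 0.0901 CPM at 7 days and 4.56 ± 1.24 CPM at 48 h (log2 fold change -4.30 ± 0.52, adjusted p = 7.09e-07). APOB, the protein of low-density lipoprotein, had 3 counts at 7 days and 140 at 48 h, a 48 h over 7-day ratio of 26.0 with a counting interval of 8.72 to 128. On the other side stood members chosen after their values were seen. Complement factor B (CFB) had 273, 291 and 286 CPM at 7 days, against 44.5, 47.5 and 44.4 CPM at 48 h and 1.84, 1.58 and 2.10 CPM in DMSO (log2 fold change 2.64 ± 0.05, adjusted p = 8.31e-19). SERPINA3, an acute phase protease inhibitor, had 715, 748 and 732 CPM at 7 days, against 140.2, 125 and 131 CPM at 48 h and 8.34, 6.31 and 6.74 CPM in DMSO (log2 fold change 2.47 ± 0.06, adjusted p = 5.2e-18). The 3 fibrinogen chains FGA, FGB and FGG rose by 1.28, 0.58 and 1.60 on the log2 scale. CD55, a brake on complement at the cell surface, changed the least (117 ± 5.18 CPM at 7 days and 131 ± 5.87 CPM at 48 h; -0.16, adjusted p = 0.0217; not called without 48 h replicate 2, 48 h replicate 4 or 7-day replicate 3, adjusted p = 0.0617 to 0.109).

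Of 18 tested inflammatory cytokines and chemokines 6 were higher and 7 lower, with a median of -0.05. CCL2, which attracts monocytes, had 222, 156 and 161 CPM at 7 days, against 25.8, 26.4 and 24.5 CPM at 48 h and 0.382, 0.493 and 0.0875 CPM in DMSO (log2 fold change 2.81 ± 0.12, adjusted p = 1.19e-13). CCL20 had 11.6, 4.54 and 4.68 CPM in the 7-day libraries, against 22.6, 26.2 and 32.0 CPM in the 48 h libraries and 5.51, 7.10 and 6.48 CPM in DMSO (log2 fold change -1.93 ± 0.30, adjusted p = 1.91e-05; -2.53 without 7-day replicate 1), so its 48 h libraries stood alone. IL11 averaged 5.51 CPM at 7 days, 1.47 CPM at 48 h and 16.7 CPM in DMSO (log2 fold change 1.92 ± 0.26, adjusted p = 2.9e-06). IL1B averaged 2.09 CPM at 7 days, 0.616 CPM at 48 h and 0.135 CPM in DMSO (log2 fold change 1.75 ± 0.44, adjusted p = 0.00239), and ICAM1 was the least changed (0.12). The neutrophil chemokines CXCL8 (-0.90), CXCL3 (-1.40) and CXCL1 (-0.71) fell while CXCL5 rose (0.41), and these 4 were chosen after their values were seen. Over the list, 15 members were above DMSO at 7 days and 17 at 48 h (36.5% and 36.8% of all tested genes were above DMSO).

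Interferon response genes were higher in 6 of 21 tested members and lower in 5, with a median of 0.26. These shares lie near those of all tested genes, of which 27.6% were higher and 23.7% lower. Of the 21, 17 were above DMSO at 7 days and 16 at 48 h (36.5% and 36.8% of all tested genes). GBP1, a guanylate-binding protein, had 49.5, 45.2 and 45.8 CPM at 7 days, against 30.9, 28.6 and 32.8 CPM at 48 h and 0, 0.592 and 0.175 CPM in DMSO (log2 fold change 0.61 ± 0.10, adjusted p = 3.52e-05). IRF1 averaged 65.6 CPM at 7 days, 43.6 CPM at 48 h and 7.99 CPM in DMSO (0.59, adjusted p = 3.04e-05). IFI6 averaged 18.5 CPM at 7 days, 9.34 CPM at 48 h and 1.40 CPM in DMSO (0.99, adjusted p = 3.33e-06). IFIT2 averaged 5.84 CPM at 7 days, 3.63 CPM at 48 h and 0.861 CPM in DMSO (0.69, adjusted p = 0.0203; not called without 48 h replicate 2, 48 h replicate 4, 7-day replicate 1 or 7-day replicate 3, adjusted p = 0.0628 to 0.0936). USP18 was the least changed (-0.02). The chemokine CXCL10, chosen after its values were seen, averaged 0.168 ± 0.168 CPM at 7 days and 0.922 ± 0.223 CPM at 48 h and had no count in DMSO (-2.39, adjusted p = 0.00659; -3.31 without 7-day replicate 2). Genes of HLA class I presentation were higher in 6 of 14 tested members and lower in 1. HLA-B had 75.4, 81.3 and 74.8 CPM at 7 days, against 26.9, 27.1 and 24.5 CPM at 48 h and 9.41, 12.4 and 7.88 CPM in DMSO (log2 fold change 1.56 ± 0.09, adjusted p = 9.87e-12). B2M, the light chain of class I molecules, averaged 853 CPM at 7 days, 479 CPM at 48 h and 154 CPM in DMSO (log2 fold change 0.83 ± 0.04, adjusted p = 1.99e-12). HLA-C averaged 337 CPM at 7 days, 193 CPM at 48 h and 89.2 CPM in DMSO (0.80, adjusted p = 2.04e-12). The peptide loader TAPBP was the least changed (-0.01). HLA genes are polymorphic and alike, and reads can be shared among them.

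In the class II list 4 of 6 tested members were higher (2 at 5 CPM or more) and 1, HLA-DRB1, lower. None was lower at 5 CPM or more, with libraries thinned to the shallowest total or with only the 2 groups compared. UBD, a ubiquitin-like protein induced by interferon gamma, had 359, 379.7 and 356 CPM at 7 days, against 101, 97.8 and 99.8 CPM at 48 h and 0, 0 and 0.175 CPM in DMSO (log2 fold change 1.87 ± 0.08, adjusted p = 4.59e-14). The protease CTSS averaged 77.2 CPM at 7 days, 48.7 CPM at 48 h and 1.87 CPM in DMSO (log2 fold change 0.67 ± 0.08, adjusted p = 3.61e-07). CD74, the invariant chain, averaged 2.65 CPM at 7 days, 0.155 CPM at 48 h and 0.0839 CPM in DMSO (log2 fold change 4.0 ± 0.65, adjusted p = 3.37e-05). HLA-DMA was the least changed (0.09). HLA-DRB1 had 1 count at 7 days and 38 at 48 h, a 48 h over 7-day ratio of 21.2 with a counting interval of 3.58 to 859 (log2 fold change -4.13 ± 0.80, adjusted p = 0.000202), and the 1 count was in 7-day replicate 1. Of 5 tested blood markers ITGAM and LCP1 fell (-0.55 and -0.48), as did CD8A (-1.27, adjusted p = 0.0181; not called without 48 h replicate 4 or 7-day replicate 3, adjusted p = 0.0527 to 0.108), and none rose.

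In the cholesterol synthesis list all 22 tested members were lower at 7 days than at 48 h, with a median of -0.96. The list holds mevalonate and sterol enzymes and SREBF2, which encodes the transcription factor that drives these genes when sterols are scarce. HMGCS1, which makes the precursor of mevalonate, had 101, 93.2 and 91.5 CPM at 7 days, against 347, 349.7 and 356 CPM at 48 h and 126, 129 and 119 CPM in DMSO (log2 fold change -1.88 ± 0.06, adjusted p = 3.3e-16). INSIG1, the sterol-regulated anchor of the SREBP pathway, averaged 22.7 CPM at 7 days, 58.7 CPM at 48 h and 38.7 CPM in DMSO (log2 fold change -1.37 ± 0.08, adjusted p = 5.71e-12). Neither gene overlapped between the durations. Their 48 h libraries were the highest of the 3 groups.

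EBP, a sterol isomerase, changed the least (39.2 CPM at 7 days, 49.7 CPM at 48 h and 57.1 CPM in DMSO; -0.34, adjusted p = 0.000268). Against DMSO 18 members were higher and 3 lower at 48 h (median 0.65), while at 7 days 5 were higher and 14 lower (median -0.39). SREBF2, chosen after its values were seen, averaged 195 CPM at 7 days, 249.7 CPM at 48 h and 189 CPM in DMSO (-0.36, adjusted p = 1.45e-06).

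The promoter of SREBF2 is printed because it was the member whose RefSeq promoter held the sterol regulatory element searched for, the letters TCACNCCAC on either strand. Promoters run from 250 bases before to 50 after the start of the gene (build GRCh38.p14), were given for 16 of the 22 genes, and held these letters in 1 of the 16 and in 313 of all 27305 promoters (1.15%). The match lies at positions -133 to -125 on the printed strand, where the start base is 1 and the base before it -1, and is in capitals. It is chr22:41832855-41833154 on the plus strand.
SREBF2: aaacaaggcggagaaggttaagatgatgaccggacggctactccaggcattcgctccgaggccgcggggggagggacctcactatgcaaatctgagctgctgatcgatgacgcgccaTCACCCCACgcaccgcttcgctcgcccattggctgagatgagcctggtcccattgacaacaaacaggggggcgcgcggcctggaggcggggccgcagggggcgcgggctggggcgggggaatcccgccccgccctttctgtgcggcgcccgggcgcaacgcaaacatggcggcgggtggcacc

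Genes of fatty acid and lipid metabolism were lower in 18 of 24 tested members and higher in 4, with a median of -0.59. SCD, the desaturase that makes oleic acid, had 228, 247 and 271 CPM at 7 days, against 1184, 1144 and 1165 CPM at 48 h and 1117, 1145 and 1179 CPM in DMSO (log2 fold change -2.23 ± 0.07, adjusted p = 2.88e-16), so it was lower at 7 days alone. PDK4, a kinase that keeps pyruvate from oxidation, averaged 9.57 CPM at 7 days, 3.13 CPM at 48 h and 10.5 CPM in DMSO (log2 fold change 1.62 ± 0.21, adjusted p = 2.32e-06). The lipid droplet protein PLIN4 averaged 0.824 ± 0.267 CPM at 7 days and 2.42 ± 0.353 CPM at 48 h (-1.54, adjusted p = 0.00352). ACADVL was the least changed (-0.06). FASN, the fatty acid synthase, and SREBF1, the factor that drives it, were chosen after their values were seen and averaged 213 CPM at 7 days, 506 CPM at 48 h and 626 CPM in DMSO (-1.25, adjusted p = 3.46e-14) and 143 CPM at 7 days, 219 CPM at 48 h and 289 CPM in DMSO (-0.62, adjusted p = 4.72e-07).

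NRF2 target genes were lower in 22 of 27 members and higher in 3, with a median of -0.83. Against DMSO the median was -0.95 at 7 days and -0.14 at 48 h, with 21 and 14 members lower. AKR1B10, an aldo-keto reductase, had 818, 780.2 and 812 CPM at 7 days, against 2812, 2719.5 and 2740.2 CPM at 48 h and 5340.3, 5755 and 5288 CPM in DMSO (log2 fold change -1.78 ± 0.04, adjusted p = 1.8e-18), a fall at each step. FTL, the ferritin light chain, had 2304, 2669 and 2544 CPM at 7 days, against 6954, 7305 and 7095 CPM at 48 h and 9342, 9296 and 9519 CPM in DMSO (log2 fold change -1.51 ± 0.04, adjusted p = 3.16e-16), and its pseudogenes can take part of its reads. AKR1C1 averaged 253 CPM at 7 days, 696 CPM at 48 h and 414 CPM in DMSO (log2 fold change -1.46 ± 0.05, adjusted p = 9.05e-16) and shares reads with AKR1C2 and AKR1C3, which also fell. The bile and drug pump ABCC2 had 112, 114 and 114 CPM at 7 days, against 362, 340.4 and 366 CPM at 48 h and 383, 369 and 372 CPM in DMSO (log2 fold change -1.65 ± 0.05, adjusted p = 8.72e-17). ABCC3 was the least changed (-0.05).

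The next members were chosen after their values were seen. Of the glutathione branch, GCLM, a subunit of the enzyme that starts glutathione synthesis, had 77.8, 84.2 and 87.7 CPM in the 7-day libraries, against 193, 208 and 216 CPM in the 48 h libraries (log2 fold change -1.31 ± 0.07, adjusted p = 4.68e-12). Of the thioredoxin branch, TXNRD1 averaged 1637 CPM at 7 days, 2519.8 CPM at 48 h and 2001 CPM in DMSO (-0.62, adjusted p = 4.94e-12). Of the enzymes that form NADPH, ME1 averaged 89.3 CPM at 7 days, 115 CPM at 48 h and 178 CPM in DMSO (-0.36, adjusted p = 6.82e-06). NQO1, a quinone reductase, averaged 723 CPM at 7 days, 1477 CPM at 48 h and 1032 CPM in DMSO (-1.03, adjusted p = 3.95e-15). The 3 members that rose were AKR1B1 (1.13), HMOX1, heme oxygenase (0.59), and NFE2L2, the gene of NRF2 itself (131 CPM at 7 days, 84.7 CPM at 48 h and 109 CPM in DMSO; 0.63, adjusted p = 0.0056; not called without 7-day replicate 1, adjusted p = 0.105).

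The letters TGACNNNGC, the core of the antioxidant response element, were searched on both strands of the RefSeq promoters. They were in 6 of the 21 list promoters given (28.6%) and in 3702 of all 27305 (13.56%), and a match is a description of the letters. The promoters of GCLM, TXNRD1 and ME1 are shown because these genes fell and hold matches, in capitals. GCLM is chr1:93909381-93909680 on the minus strand with a match at -34 to -26. TXNRD1 is chr12:104215529-104215828 on the plus strand with matches at -99 to -91 and -8 to 1. ME1 is chr6:83431002-83431301 on the minus strand with matches at -137 to -129 and 12 to 20. The other 3 genes with a match were PGD, GPX2 and CBR1.
GCLM: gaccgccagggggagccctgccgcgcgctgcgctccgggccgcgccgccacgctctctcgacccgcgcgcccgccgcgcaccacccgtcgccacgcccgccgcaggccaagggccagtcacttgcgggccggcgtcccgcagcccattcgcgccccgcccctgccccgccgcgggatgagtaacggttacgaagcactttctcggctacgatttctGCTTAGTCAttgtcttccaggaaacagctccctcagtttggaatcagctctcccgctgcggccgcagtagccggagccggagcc
TXNRD1: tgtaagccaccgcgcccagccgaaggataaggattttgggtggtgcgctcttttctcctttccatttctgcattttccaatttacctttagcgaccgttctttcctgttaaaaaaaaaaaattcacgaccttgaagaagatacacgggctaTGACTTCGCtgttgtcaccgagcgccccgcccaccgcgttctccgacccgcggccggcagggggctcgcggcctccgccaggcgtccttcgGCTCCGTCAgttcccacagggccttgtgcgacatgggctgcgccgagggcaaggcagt
ME1: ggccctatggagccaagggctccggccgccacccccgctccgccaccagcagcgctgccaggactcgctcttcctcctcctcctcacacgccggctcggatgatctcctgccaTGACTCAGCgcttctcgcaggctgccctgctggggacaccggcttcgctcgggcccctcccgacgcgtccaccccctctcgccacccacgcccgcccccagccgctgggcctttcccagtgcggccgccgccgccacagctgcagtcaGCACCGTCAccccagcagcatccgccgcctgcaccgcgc

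Among drug and solute transporters 7 of 18 tested members were higher and 7 lower. SLC27A2, a fatty acid transporter, averaged 135 CPM at 7 days, 44.4 CPM at 48 h and 14.9 CPM in DMSO (log2 fold change 1.60 ± 0.05, adjusted p = 3.09e-15). ABCG2, an efflux pump for drugs, averaged 17.2 CPM at 7 days, 42.4 CPM at 48 h and 48.7 CPM in DMSO (log2 fold change -1.31 ± 0.09, adjusted p = 2.79e-10). SLC2A9, a urate transporter, averaged 0.605 CPM at 7 days, 1.55 CPM at 48 h and 5.59 CPM in DMSO (-1.33, adjusted p = 0.00677; not called without 7-day replicate 3, adjusted p = 0.0609). ABCB1, the multidrug pump P-glycoprotein, did not pass the test between the durations with 119, 122 and 111 CPM at 7 days, against 118, 115 and 114 CPM at 48 h and 24.5, 22.3 and 24.1 CPM in DMSO (log2 fold change 0.02 ± 0.06, adjusted p = 0.83). Of 16 aldehyde dehydrogenases and histone demethylases 5 were higher and 4 lower, near the shares of all tested genes (27.6% higher and 23.7% lower). ALDH1A3 averaged 43.6 CPM at 7 days, 18.1 CPM at 48 h and 6.49 CPM in DMSO (1.26, adjusted p = 5.43e-07). ALDH1B1 averaged 104 CPM at 7 days, 50.1 CPM at 48 h and 42.6 CPM in DMSO (1.06, adjusted p = 1.59e-09). ALDH3A1 averaged 102 CPM at 7 days, 206 CPM at 48 h and 586 CPM in DMSO (-1.01, adjusted p = 2.02e-06). ALDH6A1 averaged 14.7 CPM at 7 days, 32.3 CPM at 48 h and 25.6 CPM in DMSO (-1.13, adjusted p = 8.64e-09). The demethylase KDM5C was the least changed (0.02).

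Glycolysis genes were higher in 10 of 21 tested members and lower in 4 (2 without 7-day replicate 1), with a median of 0.29. The glucose transporters SLC2A1 and SLC2A3 averaged 725 CPM at 7 days, 494 CPM at 48 h and 744 CPM in DMSO (0.55, adjusted p = 1.52e-11) and 153 CPM at 7 days, 84.3 CPM at 48 h and 108 CPM in DMSO (0.85, adjusted p = 1.79e-10). The phosphofructokinase PFKM averaged 62.2 CPM at 7 days, 34.2 CPM at 48 h and 65.4 CPM in DMSO (0.86, adjusted p = 2.53e-09). ENO2, the enolase of neurons, averaged 16.4 CPM at 7 days, 3.41 CPM at 48 h and 1.36 CPM in DMSO (2.27, adjusted p = 5.52e-09). ENO1, the common enolase, was the least changed (0.00). Nuclear genes of the respiratory chain were lower in 12 of 23 tested members and none was higher, with a median of -0.11. SDHB, a subunit of succinate dehydrogenase, had 51.1, 54.1 and 54.1 CPM in the 7-day libraries, against 95.9, 97.2 and 97.0 CPM in the 48 h libraries (log2 fold change -0.86 ± 0.05, adjusted p = 6e-12), and the other falls were small, with UQCRC2 at -0.26, COX6C at -0.25 and SDHC at -0.24. ATP5F1B was the least changed (-0.03). Of 13 transcripts of the mitochondrial genome 5 were lower (10 without a filter on low counts, and 8 with only the 2 groups compared) and 1, MT-CO1, higher, which was not called without 7-day replicate 3 or 48 h replicate 2 (adjusted p = 0.191 and 0.166). The lower ones included MT-ND3 (-0.58), the pair MT-ND4L and MT-ND4 (-0.74 and -0.33) and MT-ATP8 (-0.67), and MT-ND2 was the least changed (-0.02). MT-ND4L overlaps MT-ND4 in part and MT-ATP8 overlaps MT-ATP6 in part, so reads within the overlaps cannot be told apart.

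Genes of the integrated stress response and amino acid synthesis were higher in 13 of 21 tested members and lower in 4, with a median of 0.44. They were nevertheless below DMSO, with medians of -1.19 at 7 days and -1.46 at 48 h. CHAC1, which degrades glutathione, averaged 5.14 CPM at 7 days, 1.18 CPM at 48 h and 9.90 CPM in DMSO (log2 fold change 2.12 ± 0.32, adjusted p = 1.26e-05). PSAT1, an enzyme of serine synthesis chosen after its values were seen, had 25.6, 26.5 and 28.6 CPM at 7 days, against 12.2, 9.42 and 10.9 CPM at 48 h and 506, 485 and 508 CPM in DMSO (log2 fold change 1.31 ± 0.10, adjusted p = 1.01e-09). VLDLR averaged 137 CPM at 7 days, 55.2 CPM at 48 h and 33.9 CPM in DMSO (1.31, adjusted p = 3.19e-13). Against this direction, CTH, which makes cysteine, averaged 4.75 CPM at 7 days, 17.1 CPM at 48 h and 30.2 CPM in DMSO (-1.84, adjusted p = 2.78e-10). PSPH, the last enzyme of serine synthesis, averaged 31.5 CPM at 7 days, 78.1 CPM at 48 h and 61.8 CPM in DMSO (-1.31, adjusted p = 2.04e-13). The cystine transporter SLC7A11 was the least changed (0.08). Chaperones of the endoplasmic reticulum were lower in 14 of 20 members and higher in 1, with a median of -0.18. HSPA5, the chaperone BiP, had 519, 487 and 490.5 CPM at 7 days, against 759.6, 734 and 788 CPM at 48 h and 1296, 1360.2 and 1258 CPM in DMSO (log2 fold change -0.61 ± 0.04, adjusted p = 1.45e-10). ERN1, the stress sensor IRE1, averaged 7.29 CPM at 7 days, 15.9 CPM at 48 h and 18.96 CPM in DMSO (-1.12, adjusted p = 6.13e-06). The disulfide isomerase PDIA4 averaged 253 CPM at 7 days, 373 CPM at 48 h and 627 CPM in DMSO (-0.56, adjusted p = 4.45e-10). SDF2L1 averaged 25.0 CPM at 7 days, 35.4 CPM at 48 h and 53.3 CPM in DMSO (-0.50, adjusted p = 0.000122). HERPUD1 was the least changed (0.03).

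Lysosome and autophagy genes were higher in 11 of 28 members and lower in 8, and 23 were above DMSO at 7 days and 24 at 48 h (36.5% and 36.8% of all tested genes). ULK1, the kinase that starts autophagy, averaged 478 CPM at 7 days, 295 CPM at 48 h and 107 CPM in DMSO (0.70, adjusted p = 3.05e-10). The cholesterol carrier NPC2 averaged 92.8 CPM at 7 days, 55.6 CPM at 48 h and 27.3 CPM in DMSO (0.74, adjusted p = 4.12e-09). SQSTM1, the autophagy receptor p62, averaged 651 CPM at 7 days, 1273 CPM at 48 h and 623 CPM in DMSO (-0.97, adjusted p = 7.52e-14). The proton pump subunit ATP6V1B1 averaged 3.03 CPM at 7 days, 16.1 CPM at 48 h and 2.48 CPM in DMSO (-2.41, adjusted p = 2.84e-10). MAP1LC3B was the least changed (0.02). Ribosomal protein genes were lower in 23 of 29 members, none was higher, and the median was -0.21. RPS2 averaged 738 CPM at 7 days, 1220.0 CPM at 48 h and 2414 CPM in DMSO (-0.73, adjusted p = 2.24e-11). RPL27A averaged 307 ± 11.2 CPM at 7 days and 425 ± 14.8 CPM at 48 h (-0.47, adjusted p = 2.17e-08). RPL4 averaged 1141 ± 36.1 CPM at 7 days and 1573 ± 17.0 CPM at 48 h (-0.46, adjusted p = 4.67e-10). RPS4X averaged 574 ± 10.3 CPM at 7 days and 752 ± 22.6 CPM at 48 h (-0.39, adjusted p = 2.73e-08), while RPL32 was the least changed. Pseudogenes of ribosomal protein genes can take part of their reads. Genes of ribosome biogenesis were lower in 8 of 25 members (5 without 48 h replicate 2 or 3, with median-of-ratios scaling or with thinned libraries, and 4 without 7-day replicate 2 or by DESeq2) and higher in 4 (1 without 48 h replicate 4, and 2 without any 1 of the 7-day libraries, without a filter, with thinned libraries or with only the 2 groups compared), and all 25 were below DMSO at both durations. The nucleolar proteins NPM1 and FBL averaged 386 CPM at 7 days, 549.6 CPM at 48 h and 1472 CPM in DMSO (-0.51, adjusted p = 6.28e-10) and 51.1 CPM at 7 days, 70.4 CPM at 48 h and 259 CPM in DMSO (-0.46, adjusted p = 3.44e-06). RRP9 changed by 0.33, adjusted p = 0.0325 (not called without 48 h replicate 4, 7-day replicate 2 or 7-day replicate 3, adjusted p = 0.0771 to 0.169) and BYSL by 0.30, adjusted p = 0.0214 (not called without 48 h replicate 4, 7-day replicate 1 or 7-day replicate 2, adjusted p = 0.0503 to 0.0626), and NOLC1 was the least changed (-0.01).

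The change between 48 h and 7 days in A549 was then set against the mean of the same change in A375, H3122, N87, PC9 and RT112, each under its own drug, in a fit of all 90 libraries. The line and its drug differ together here and cannot be told apart, and the result concerns these 5 lines. By the quasi-likelihood test of this difference, 6345 of 19655 genes passed (32.3%), 3058 with a higher change in A549 (15.6%) and 3287 with a lower change (16.7%). At 2-fold or more there were 614 and 946. For 4416 of the genes at least 1 of the 12 groups had no count. Each line's own change in this fit was called in 38% of the genes in A549, 29.2% in RT112, 38.1% in PC9, 31.8% in N87, 52.5% in H3122 and 33.1% in A375.

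The cholesterol synthesis genes differed in all 22 members, each with a lower change in A549 (median difference -1.04). Their own median change was -1.01 in A549 in this fit, with -0.37 in RT112, 0.03 in PC9, 0.11 in N87, -0.36 in H3122 and 0.03 in A375. HMGCS1 changed by -1.93 in A549, against -0.10 in RT112, 0.47 in PC9, 0.12 in N87, -1.31 in H3122 and 0.45 in A375 (difference -1.86 ± 0.08, adjusted p = 1.4e-30). NRF2 targets had a lower change in A549 in 21 of 27 members and a higher one in 1 (median difference -0.71), with own medians of -0.88 in A549, -0.25 in RT112, -0.10 in PC9, 0.40 in N87, -0.22 in H3122 and 0.22 in A375. The ER chaperones had a lower change in A549 in 19 of 20 members, with own medians of -0.23 in A549, -0.02 in RT112, 0.00 in PC9, 0.30 in N87, 1.38 in H3122 and -0.28 in A375. A375 thus fell as well, with 11 members lower, while all 20 members rose in H3122. The mesenchymal and matrix list had a higher change in A549 in 12 of 28 members and a lower one in 2 (median difference 0.88). Its own medians were 0.76 in A549, 0.27 in RT112, 0.03 in PC9, 0.57 in N87, -0.18 in H3122 and -0.32 in A375, so N87 and RT112 also rose.

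Of 26 mitosis genes 2 had a higher and 2 a lower change in A549 than the mean of the other lines, which themselves moved in opposite directions. The own median of the list was -0.51 in A549, -1.76 in RT112, 1.49 in PC9, 0.29 in N87, -3.82 in H3122 and 1.40 in A375. The ERK output genes, in contrast, had a positive own median in every line. It was 0.15 in A549, 0.06 in RT112, 1.30 in PC9, 0.31 in N87, 1.54 in H3122 and 0.22 in A375. Of 20 members 8 had a lower change in A549. The A549 side depends on replicate 1 of the longer treatment, which stood apart in 11 of the 20 members. In the fit of A549 alone the list median was 0.2, and -0.66 without replicate 1. The comparison of this list with the other lines is not given without that library.

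The 12 genes with the largest differences were named among genes called in both this test and that of A549 alone, with at least 5 CPM in the higher A549 group. Below that level, SPARC (difference 5.66 ± 1.38, adjusted p = 0.000692) and HLA-DRB1 (difference -4.70 ± 0.80, adjusted p = 1.79e-06) also differed. IGFBP5 changed by 7.89 in A549 and by -1.60 to 2.06 in the other lines (difference 7.75 ± 0.44, adjusted p = 8.77e-25). H19 changed by -8.28 in A549, against -3.05 in N87 and 2.11 in H3122, the extremes of the other lines (difference -7.52 ± 0.31, adjusted p = 1.35e-32). NEB changed by -3.91 in A549 and by -0.75 to 1.59 elsewhere (difference -4.39 ± 0.38, adjusted p = 6.71e-16), and GPT by -3.19 in A549 and by 0.08 to 0.94 elsewhere (difference -3.68 ± 0.26, adjusted p = 1.73e-20). CST1, a salivary cysteine protease inhibitor, had 6.79, 4.03 and 5.85 CPM in the 7-day libraries, against 0.684, 1.18 and 0.820 CPM in the 48 h libraries, and its difference was 3.90 ± 0.79, adjusted p = 4.57e-05. ADH6, an alcohol dehydrogenase of liver, had 3.56, 3.53 and 2.67 CPM in the 7-day libraries, against 18.6, 19.9 and 19.3 CPM in the 48 h libraries, and its difference was -3.90 ± 0.79, adjusted p = 6.88e-05. CST1 had 1 and ADH6 had 2 of the 12 groups without a count, so these fitted differences depend on the small prior count of the fit and are no bound.

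**Figure D4:**
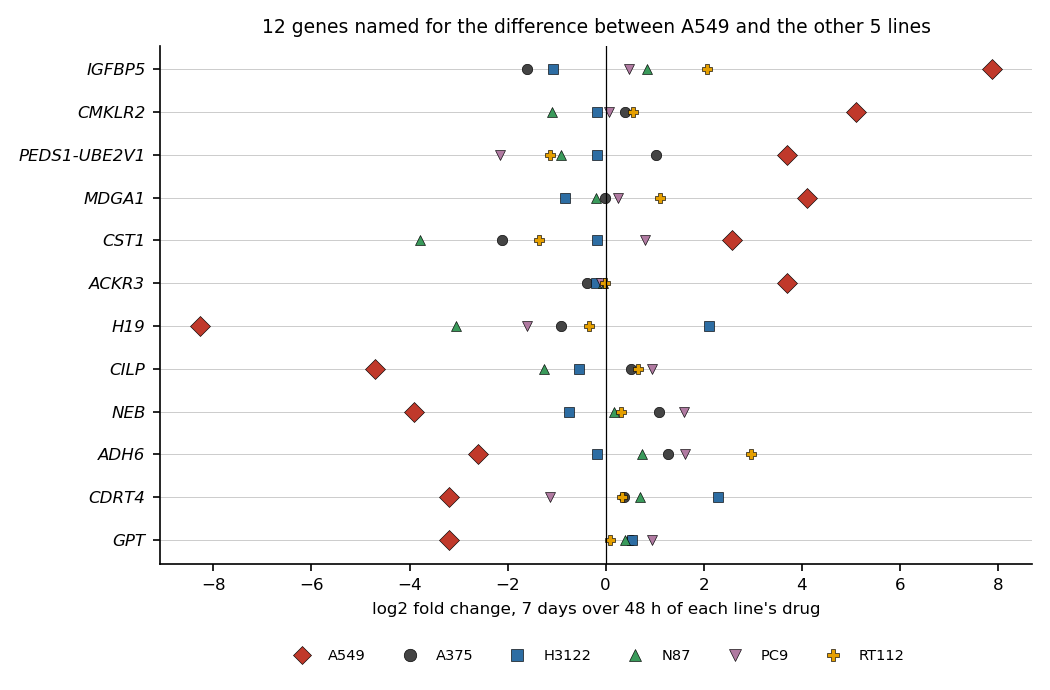
Log2 fold change of 7 days over 48 h of each line's own drug for the 12 genes with the largest difference between A549 and the mean of the other lines among called genes of at least 5 CPM in A549, with 1 point per line. A549 lies at the top for IGFBP5 (7.89), CMKLR2 (5.11) and MDGA1 (4.11) and at the bottom for H19 (-8.28), CILP (-4.71) and NEB (-3.91).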

How the data were processed

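Per the labels' protocols, extraction used the RNeasy micro kit and library preparation the NEBNext Ultra RNA kit. Per the submitters' processing notes, the authors used Bowtie2 2.2.1, RSEM 1.2.12 and the hg19 build. The deposited table holds expected counts, which RSEM estimates for each gene. In the A549 libraries 7.83 to 11.82% of the values were not whole, and they were rounded to whole numbers before testing. The annotation and the strandedness are not given in the sources used here. Gene symbols came from a table of gene names for 37404 of 53893 IDs, and the IDs without one held 1.6% of the A549 counts.

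The 15 A549 libraries were fitted together with edgeR 4.0.16 in R 4.3.3 (filterByExpr, TMM scaling, quasi-likelihood test, Benjamini-Hochberg adjusted p of 0.05), after the code was tested on simulated data. CPM uses the TMM-scaled library sizes. The ± after a log2 fold change or difference is its absolute value divided by the square root of the test's F statistic, an approximate standard error. The ± after a mean CPM is the SD. The labels name no spike-in, so changes are relative to the whole RNA. The difference from the other 5 lines was fitted on all 90 libraries. Alternatives used DESeq2 1.42.0, other scaling, filters, depth and left-out libraries. Figures and counting intervals used Python 3.11.15, SciPy 1.17.1 and matplotlib 3.10.9. Intervals at 95% and floors of 3 counts cover counting error only.

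The members and the 43 gene lists (914 genes, 9 of them not matched) were chosen with earlier results of these data known. Genes were named by rule as follows. The 15 largest called changes each way with no overlap between libraries and at least 5 CPM were taken, then up to 4 per list at 1 CPM or more with the least changed gene at 5 CPM or more, the 6 largest differences each way from the other lines among genes called in both tests at 5 CPM or more in A549, and the pathway genes. Some genes that the rule names are not reported here. Promoters are from RefSeq, build GRCh38.p14.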

Additional observations from a re-analysis of the deposited data

Results flagged for a closer look

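The 12 results below stand out because the change between 48 h and 7 days in A549 differed from the mean change of the other 5 lines, by edgeR's quasi-likelihood test of that difference in the fit of 90 libraries. With the replicate number as a block, CMKLR2 and CST1 were not called. The differences are on the log2 scale with approximate standard errors derived from the test. Each line had its own drug, and line and drug cannot be told apart.

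Among these, 6 genes had a higher change in A549. IGFBP5 differed by 7.75 ± 0.44, adjusted p = 8.77e-25. CMKLR2 differed by 5.15 ± 0.98, adjusted p = 1.62e-05, with changes of -1.09 to 0.56 in the other lines. MDGA1 differed by 4.04 ± 0.29, adjusted p = 1.35e-19, and ACKR3 by 3.85 ± 0.69, adjusted p = 1.36e-05, with changes of -0.37 to -0.01 in the other lines. PEDS1-UBE2V1 differed by 4.38 ± 1.10, adjusted p = 0.000916, with changes of -2.16 to 1.03 elsewhere. CST1 differed by 3.90 ± 0.79, adjusted p = 4.57e-05, with 1 group of the contrast at no count.

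The remaining 6 had a lower change in A549. H19 differed by -7.52 ± 0.31, adjusted p = 1.35e-32 and CILP by -4.77 ± 0.63, adjusted p = 3.63e-09, with changes of CILP of -1.26 to 0.95 in the other lines. NEB differed by -4.39 ± 0.38, adjusted p = 6.71e-16 and GPT by -3.68 ± 0.26, adjusted p = 1.73e-20. CDRT4 differed by -3.72 ± 1.21, adjusted p = 0.0118, with changes of -1.13 to 2.30 elsewhere, and its exons overlap a readthrough gene. ADH6 differed by -3.90 ± 0.79, adjusted p = 6.88e-05, with 2 groups of the contrast at no count.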

How the results depend on the processing

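No count over all genes moved by more than 1.5 times under the alternatives run. For 7 days against 48 h, there were 7591 calls, 6832 to 7089 with 1 library left out, 6706 by DESeq2, 6806 at 5 CPM or more, 7534 without a filter, 7595 with median-of-ratios scaling and 7302 with only the compared libraries. Thinning, chosen after the data were seen, gave 6874. Against DMSO, leaving out 1 library gave 10657 to 10888 calls at 7 days (11053 with all) and 10568 to 10700 at 48 h (10981 with all). The difference from the other lines had 6345 calls, 5632 to 5907 with 1 A549 library left out and 6102 to 6653 with 1 other line left out. With only genes counted in all 12 groups it had 6388, and 6506 without H3122 7-day replicate 1 and RT112 replicate 1, both chosen after the data were seen.

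With the replicate number as a block, 7315 genes were called between 7 days and 48 h, 7026 of them shared with the 7591. The shared numbers 2 and 3 had correlations of deviations of 0.00 and -0.03, so they do not pair the libraries. Against DMSO the block gave 10900 calls at 7 days and 11001 at 48 h, and 6066 for the difference from the other lines. Of the 12 genes named for that difference, CMKLR2 (4.67) and CST1 (3.49) were not called with the block (adjusted p = 1 each), and the other 10 kept their calls.

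Some list medians had the other sign under an alternative. Without 7-day replicate 1 the median was -0.66 for ERK output, -0.27 for immediate-early genes and -0.02 for both the CDK inhibitor and the epithelial junction lists. At 5 CPM or more it was -0.04 for growth factor receptors and 1.03 for melanocyte markers. Without a filter it was -0.14 for epithelial junctions and 0.56 for melanocyte markers, and without 48 h replicate 4 it was 0.05 for melanocyte markers. With any 1 of the compared libraries left out, IER2 ranged from -0.29 to 0.16 and the CDK inhibitor median from -0.02 to 0.22, and without a filter the inflammatory median was 0.0. Without a filter 2 melanocyte markers were higher and 2 fibroblast and endothelial markers lower, against 1 each. The cause was not tested. Of 236 named genes tested, 18 changed their call or direction under some alternative. DESeq2 did not call PEDS1-UBE2V1, E2F8, CDKN1C or CD8A. Totals of 6.2 to 6.38 M at 7 days limit genes under about 1 CPM most.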
